A study of Mus musculus with 8 samples.

Results

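The 10 genes of transforming growth factor beta (TGF-beta) signalling described here were followed through RNA-seq of mouse brain: the ligand genes Tgfb1, Tgfb2 and Tgfb3, the latency genes Ltbp1 and Nrros, the receptor genes Tgfbr1 and Tgfbr2, the signal mediator Smad3, its antagonist Smad7, and Tgfbi, which codes for a matrix protein. They were chosen by name, and all 10 were found among the 54532 genes of the deposited tables and passed the filter on low counts in both comparisons. The 8 libraries came from male C57BL/6 mice and were taken on Day 21. The sample labels give no age, and the methods give one, a few months, only for mice in the open field test. The PTS + RS group (2 libraries) had photothrombotic stroke, in which a light-activated dye clots cortical vessels, plus restraint stress, and the RS group (2 libraries) had restraint stress without stroke, so both had been restrained. By the paper, RGFP109 is selective for the histone deacetylases HDAC1 and HDAC3, and the labels call it an HDAC3 inhibitor. The RGFP109 group (2 libraries) received it subcutaneously at 60 mg/kg once a day for 2 weeks. Its control group (2 libraries) is called NaCl in the labels, and by the study's description both were PTS + RS mice. All libraries were labelled cortex except replicate 2 of RGFP109 and replicate 2 of NaCl, which were labelled amygdala. The sources used here do not say whether a library is 1 mouse or a pool, so p-values measure the spread between these libraries, which may be technical.

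TGF-beta ligands are secreted in a latent form, held by a propeptide that is tethered by anchor proteins such as LTBP1 in the matrix or NRROS on the surface of microglia and other macrophages. Once released, a ligand dimer joins the type II receptor TGFBR2 to the type I receptor TGFBR1, which phosphorylates SMAD2 and SMAD3. These enter the nucleus with SMAD4 and change transcription, and SMAD7, itself induced by the pathway, shuts the type I receptor down. In the brain the pathway is known for keeping microglia, the resident macrophages, in their homeostatic state, and for scar formation and repair after injury.

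The libraries held between 15902013 and 21712033 counts on genes. Several libraries held markers that their labels do not name. The summed level of 10 olfactory bulb markers was 1989 CPM (a count relative to its library's TMM-adjusted total) in replicate 1 of NaCl and between 177 and 232 CPM in the other libraries. Markers of the striatum summed to 1373 and 1514 CPM in the libraries labelled amygdala (RGFP109 and NaCl replicate 2) and to at most 257 CPM elsewhere, while the amygdala markers summed to 277 and 278 CPM there against 1010 CPM in replicate 1 of NaCl. Markers of the choroid plexus, which secretes the cerebrospinal fluid, summed to between 1557 and 3909 CPM in 4 libraries (PTS + RS replicate 1, both RS and RGFP109 replicate 1) and to at most 48.2 CPM in the others. The 10 cortical markers were present in every library, between 1415 and 2300 CPM.

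With stroke, 4 members rose: the ligand gene Tgfb1, its macrophage-side anchor Nrros and both receptor genes. The 250 bases before the RefSeq start of each are printed here because these genes moved together, as they stand in the RefSeq promoter table of build GRCm38.p6, 5′ to 3′ on the strand of the gene. RefSeq promoters were matched for 8 of the 10 members. Capitals mark matches on either strand to the GC box GGGCGG, the CCAAT box CCAAT, the purine-rich box GAGGAA and the NF-kB motif.
Tgfb1 (chr7:25686752-25687001, plus strand): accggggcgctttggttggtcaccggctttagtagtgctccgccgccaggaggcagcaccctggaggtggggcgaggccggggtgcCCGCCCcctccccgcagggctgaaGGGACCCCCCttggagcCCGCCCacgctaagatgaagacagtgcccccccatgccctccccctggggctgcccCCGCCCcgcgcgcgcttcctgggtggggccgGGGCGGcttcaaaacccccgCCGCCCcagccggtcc
Nrros (chr16:32165595-32165844, minus strand): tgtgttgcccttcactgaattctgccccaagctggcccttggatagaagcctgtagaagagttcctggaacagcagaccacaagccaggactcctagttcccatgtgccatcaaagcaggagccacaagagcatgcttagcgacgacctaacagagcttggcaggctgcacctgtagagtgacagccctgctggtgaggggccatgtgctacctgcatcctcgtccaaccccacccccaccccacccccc
Tgfbr1 (chr4:47352972-47353221, plus strand): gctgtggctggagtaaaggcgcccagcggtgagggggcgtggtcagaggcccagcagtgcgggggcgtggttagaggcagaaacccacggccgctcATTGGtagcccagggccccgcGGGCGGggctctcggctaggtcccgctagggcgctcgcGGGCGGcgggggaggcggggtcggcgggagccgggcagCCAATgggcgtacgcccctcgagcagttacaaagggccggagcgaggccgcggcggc
Tgfbr2 (chr9:116175364-116175613, minus strand): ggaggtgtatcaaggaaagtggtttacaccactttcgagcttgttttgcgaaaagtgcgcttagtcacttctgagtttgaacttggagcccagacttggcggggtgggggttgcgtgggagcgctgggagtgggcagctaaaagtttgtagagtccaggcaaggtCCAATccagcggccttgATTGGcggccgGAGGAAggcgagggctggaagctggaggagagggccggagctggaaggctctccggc
The Tgfb1 window held 5 GC boxes and 1 match to the NF-kB motif. The Tgfbr1 window held 2 GC boxes and 2 CCAAT boxes, and the Tgfbr2 window 2 CCAAT boxes and 1 GAGGAA. None of these letters was found in the Nrros window, so the 4 promoters shared no single motif of those searched. For comparison, of 32851 RefSeq promoter windows of the same length 32.7% held a GC box, 33.8% a CCAAT box, 23.3% a GAGGAA and 5.00% the NF-kB motif. The SMAD palindrome GTCTAGAC, present in 0.167% of windows, and the AP-1 motif TGANTCA, present in 6.75%, were found in none of the 8 member windows. TATAAA, present in 12.4% of windows, was found before Tgfb2 alone of the 8. These are matches of letters, and binding was not measured.

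The first comparison asked how the pathway genes of mice with stroke plus restraint differed from those of mice with restraint alone. By edgeR's quasi-likelihood test at a Benjamini-Hochberg adjusted p under 0.05, 4 of 10 members were higher in PTS + RS (Tgfb1, Nrros, Tgfbr1 and Tgfbr2) and 0 were lower (Smad7 alone was lower at an unadjusted p under 0.05), against 2.96% of all 17581 tested genes higher and 0.586% lower. The fold changes of these genes lay between 1.80 and 2.68, and 3 of them had a log2 fold change of at least 1 (Tgfb1, Nrros and Tgfbr2), as did 2.12% of all tested genes. Tgfb2, Tgfb3, Ltbp1, Smad3, Smad7 and Tgfbi did not pass.

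**Figure D1:**
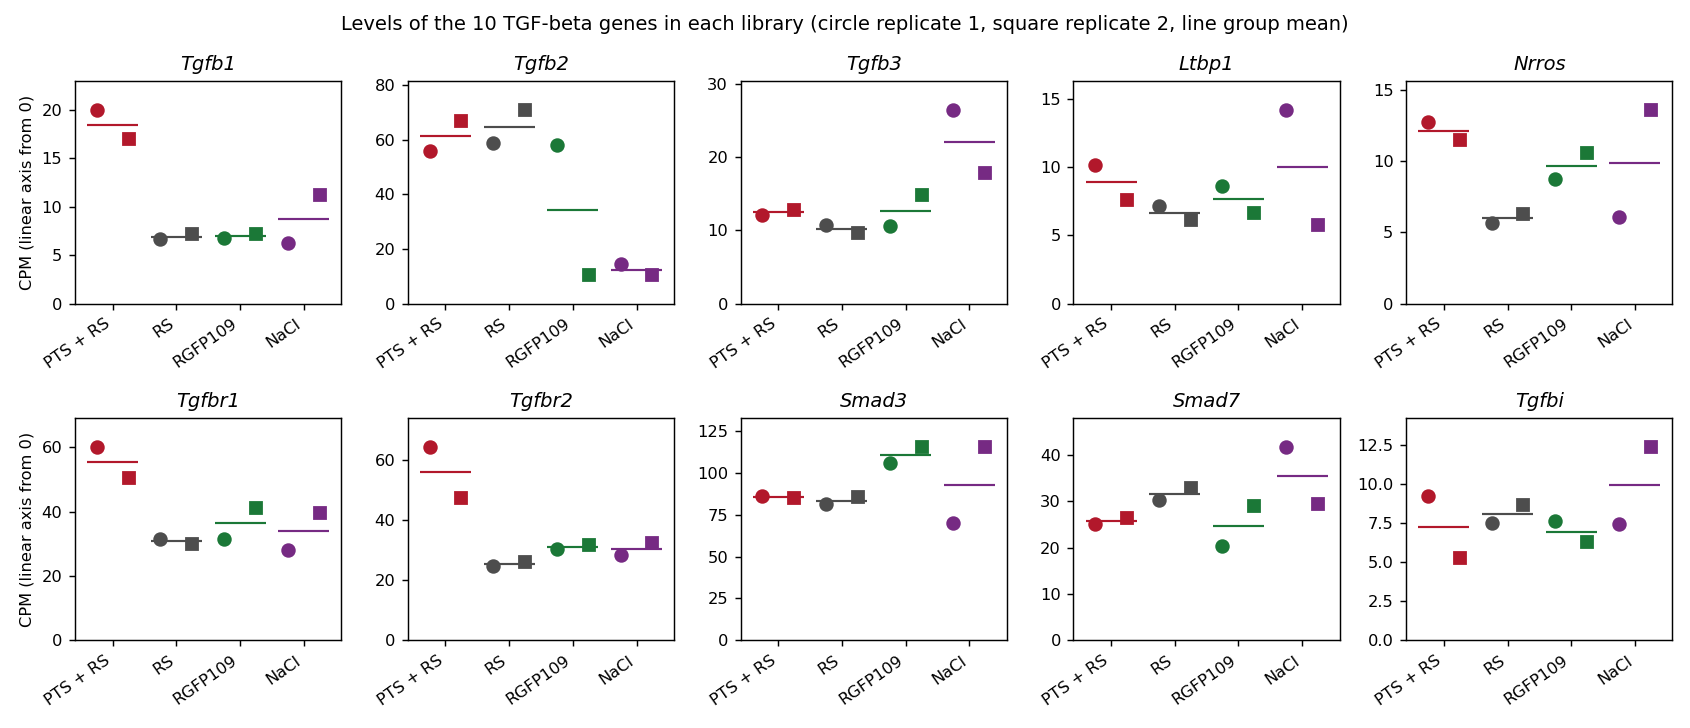
Level of each of the 10 genes in CPM on a linear axis from 0, by group, with a circle for replicate 1, a square for replicate 2 and a line at the group mean. Tgfb1, Nrros, Tgfbr1 and Tgfbr2 lie higher in both PTS + RS libraries than in both RS libraries, and Tgfb2 is high in 5 libraries and low in 3.

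Among the ligands, Tgfb1 (ENSMUSG00000002603, chr7:25687002-25705077, GRCm38), the form mainly made by microglia and other immune cells in the brain, measured 20.0 and 16.9 CPM in PTS + RS and 6.62 and 7.13 CPM in RS. Both stroke libraries stood above both restraint-only libraries. The log2 fold change was 1.42 ± 0.16 (SE, 95% interval 1.04 to 1.81), with an adjusted p of 0.0050 by edgeR. Tgfb2 (chr1:186622792-186705989), the form abundant in neurons and astrocytes, measured 56.0 and 66.9 CPM in PTS + RS and 58.7 and 70.9 CPM in RS. The groups overlapped, and the 95% interval of the log2 fold change, -0.37 to 0.22, leaves out a change of the size of that of Tgfb1. Tgfb3 (chr12:86056745-86079041) measured 12.1 and 12.8 CPM against 10.7 and 9.59 CPM, without overlap. Its log2 fold change of 0.30 (95% interval -0.07 to 0.66) did not pass (edgeR, adjusted p = 0.376). Tgfb2 and Tgfb3 overlap genes on the opposite strand, and the strand setting of the counting is not given in the sources used here, so reads of those genes may enter their counts.

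Compared per length in the deposited FPKM (fragments scaled to gene length and library size), Tgfb2 was the most abundant ligand transcript in both groups of this comparison. It made up 56.2% and 61.8% of the summed ligand FPKM in PTS + RS and 69.3% and 74.2% in RS. The Tgfb1 share was 23.0% and 18.0% in PTS + RS and 8.99% and 8.58% in RS, and these ranges did not overlap. The share of Tgfb3 lay between 17.2% and 21.7% in all 4 libraries, with overlap. The summed ligand FPKM was 17.1 and 18.6 in PTS + RS and 14.5 and 16.4 in RS.

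**Figure D2:**
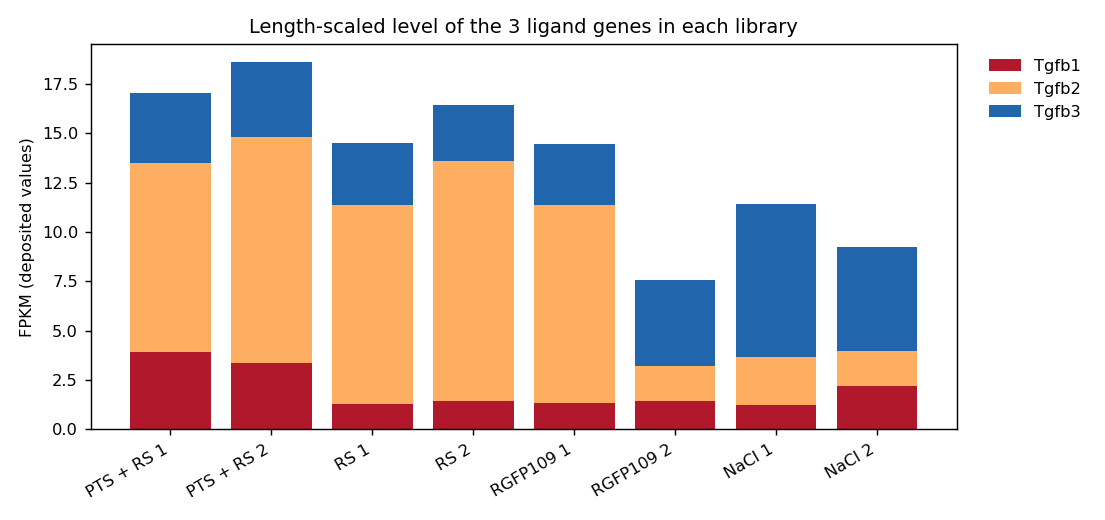
Deposited FPKM of the 3 ligand genes, stacked from 0, with a bar for each library. The Tgfb1 segment is taller in both PTS + RS libraries (3.92 and 3.34 FPKM) than in both RS libraries (1.31 and 1.41 FPKM), and the Tgfb2 segment is small in RGFP109 replicate 2 and in both NaCl libraries (1.78 to 2.45 FPKM).

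Of the latency genes, Nrros (ENSMUSG00000052384, chr16:32142785-32165594), whose product presents latent TGF-beta1 on microglia, measured 12.7 and 11.5 CPM in PTS + RS and 5.68 and 6.31 CPM in RS. The groups did not overlap. The log2 fold change was 1.01 ± 0.17 (SE, 95% interval 0.61 to 1.42) with an adjusted p of 0.0263 by edgeR. This call was lost without RS replicate 1 (log2 fold change 0.93, edgeR adjusted p = 0.131) and without RS replicate 2 (1.08, adjusted p = 0.0765). Ltbp1 (chr17:75005568-75392512), which ties the latent complex to the extracellular matrix, measured 10.2 and 7.60 CPM against 7.12 and 6.12 CPM. Its log2 fold change of 0.42 (95% interval -0.08 to 0.92) did not pass, and a same-strand pseudogene, Gm6276, lies within its span.

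Both receptor genes passed. Tgfbr1 (ENSMUSG00000007613, chr4:47353222-47414931), the kinase that phosphorylates SMAD3, measured 60.2 and 50.4 CPM in PTS + RS and 31.6 and 30.0 CPM in RS, a log2 fold change of 0.84 ± 0.11 (SE, edgeR, adjusted p = 0.0103). Tgfbr2 (ENSMUSG00000032440, chr9:116084293-116175360), the ligand-binding type II receptor, measured 64.3 and 47.5 CPM against 24.7 and 25.9 CPM, a log2 fold change of 1.14 ± 0.15 (SE, edgeR, adjusted p = 0.0096). Neither pair of groups overlapped, and for both genes replicate 1 of PTS + RS was the higher stroke library. Per length, the FPKM ratio of Tgfbr2 to Tgfbr1 was 0.853 and 0.751 in PTS + RS and 0.625 and 0.687 in RS.

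Of the genes of the signal inside the cell, 0 passed by edgeR. Smad3 (chr9:63646767-63757994) measured 86.3 and 84.8 CPM in PTS + RS and 81.2 and 85.6 CPM in RS, with overlap. The 95% interval of its log2 fold change was -0.14 to 0.21, so a rise of the size of either receptor's lies outside it. Smad7, the inhibitory SMAD that the pathway induces as feedback, measured 25.2 and 26.5 CPM in PTS + RS and 30.2 and 32.9 CPM in RS. Both stroke libraries were the lower ones, with a log2 fold change of -0.29 (95% interval -0.54 to -0.04) and an edgeR adjusted p of 0.218. Tgfbi (chr13:56609523-56639562), a secreted matrix protein named for its induction by TGF-beta, measured 9.22 and 5.27 CPM against 7.50 and 8.64 CPM, and the wider spread in PTS + RS spanned both RS libraries. In all, 6 members lay higher and 1 lower in PTS + RS without overlap between the groups, where 25.7% and 24.5% of all tested genes did.

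**Figure D3:**
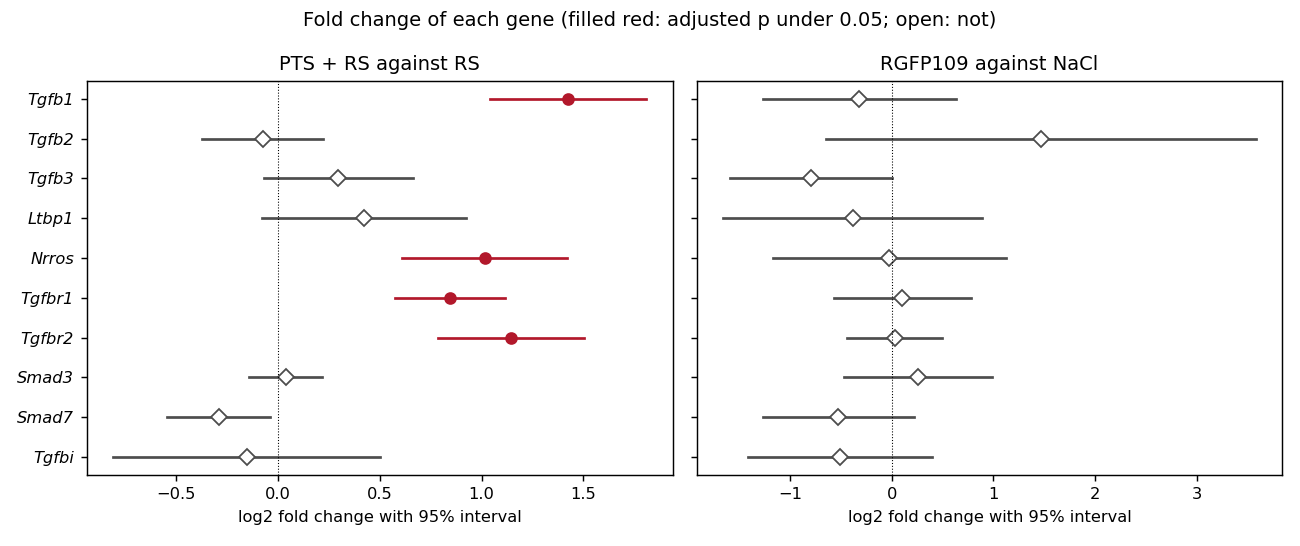
Log2 fold change of each gene with its 95% interval, for PTS + RS against RS (left) and RGFP109 against NaCl (right), on axes of different scale. Filled red circles passed at an adjusted p under 0.05 (Tgfb1, Nrros, Tgfbr1 and Tgfbr2, left only), and the interval of Tgfb2 under RGFP109 runs from -0.65 to 3.58.

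Markers of microglia rose alongside the 4 members. All 12 microglial markers passed as higher in PTS + RS, with a median log2 fold change of 2.25, and their summed level was 1803 and 1530 CPM in PTS + RS and 391 and 352 CPM in RS. In bulk tissue, more cells of a type and more RNA per cell cannot be told apart. The part of the microglial rise in the differences of the 4 members was not tested. Of the border macrophage markers 7 of 7 tested were higher, with a median log2 fold change of 1.23, and 1 passed (Ms4a7). They summed to 38.8 and 18.3 CPM in PTS + RS and 13.2 and 11.9 CPM in RS. The monocyte and neutrophil markers summed to 2.2 CPM or less in these 4 libraries, and none of the 10 had counts enough to be tested. Of the astrocyte markers 9 of 10 were higher (median log2 fold change 0.22) and 3 passed. The endothelial markers were higher in 10 of 10 (median 0.24) and 0 passed. The pericyte and smooth muscle markers were higher in 5 of 9 (median 0.02) and 1 passed. Choroid plexus markers summed to 1659 and 48.2 CPM in PTS + RS and 1880 and 3909 CPM in RS, with 0 of 10 passing by edgeR and 4 at an unadjusted p under 0.05. Their part in the member differences was not tested.

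The wider pathway was described by lists. Of 61 listed genes for ligand storage and activation, other receptors, other SMADs and their regulators, and other ligands of the superfamily, 57 were tested and 0 passed by edgeR. Of these 57, 29 were higher and 28 lower in PTS + RS, and 7 had an unadjusted p under 0.05, a measure met by 17.9% of all tested genes. The median log2 fold changes of the 4 lists were -0.10, 0.05, 0.02 and -0.15, with that of all tested genes at 0.00. Over all tested genes 598 passed as higher and 187 as lower with DESeq2, and 687 and 228 with a replicate block. With DESeq2 and with a replicate block 1 pathway gene passed, Tgif1, a SMAD corepressor named here after its values were seen. It measured 6.60 and 4.25 CPM in PTS + RS and 1.99 and 2.21 CPM in RS, a log2 fold change of 1.37 (edgeR, adjusted p = 0.0605; DESeq2, adjusted p = 0.041; replicate block, adjusted p = 0.041).

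Genes listed as responding to the pathway were described by 2 lists, induced targets and microglial genes. Thbs1, Pmepa1, Skil and Smad6 were both among the induced targets and on the pathway lists, so those counts are not independent. The targets also shared 3 genes with the meningeal fibroblast markers and 2 with the pericyte and smooth muscle markers. Of 20 targets that TGF-beta induces in many cell types, 19 were tested and 0 passed by edgeR, with 12 higher, 7 lower, 7 at an unadjusted p under 0.05 and a median log2 fold change of 0.09. This count depended on the test. Over all tested genes, 521 passed as higher and 103 as lower in the main fit. These counts were 598 and 187 with DESeq2, and 687 and 228 with a replicate block. Of the targets, 4 passed with DESeq2 and 4 with a replicate block. Among them in both cases, and named here after their values were seen, were Fn1 and Id3 as higher and Junb as lower. Fn1, the matrix protein fibronectin, measured 216.6 and 151.1 CPM in PTS + RS and 117.6 and 96.2 CPM in RS, a log2 fold change of 0.78 with an edgeR adjusted p of 0.0625. Of 15 microglial genes listed from general knowledge as needing TGF-beta signalling, 14 passed as higher, and the median log2 fold change was 1.69. Whether each gene on this list needs TGF-beta was not tested. The largest rises were those of Trem2, a lipid-sensing receptor of microglia (log2 fold change 2.84, edgeR adjusted p = 4.8e-04), and C1qa, a chain of the first complement component (2.61, adjusted p = 8.0e-05). The exception was the sugar transporter gene Slc2a5, named here after its values were seen, with a log2 fold change of 0.55 (edgeR, adjusted p = 0.359). Among the 14 that passed, the smallest rises were those of Mertk (log2 fold change 0.70) and Siglech (0.84), also named after their values were seen. The median of the microglial markers was 2.25, and a difference between this list and those markers was not tested. Of these 15 genes, 7 are also on the microglial marker list, and 0 of the 15 passed in a single fit over the 8 libraries.

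**Figure D4:**
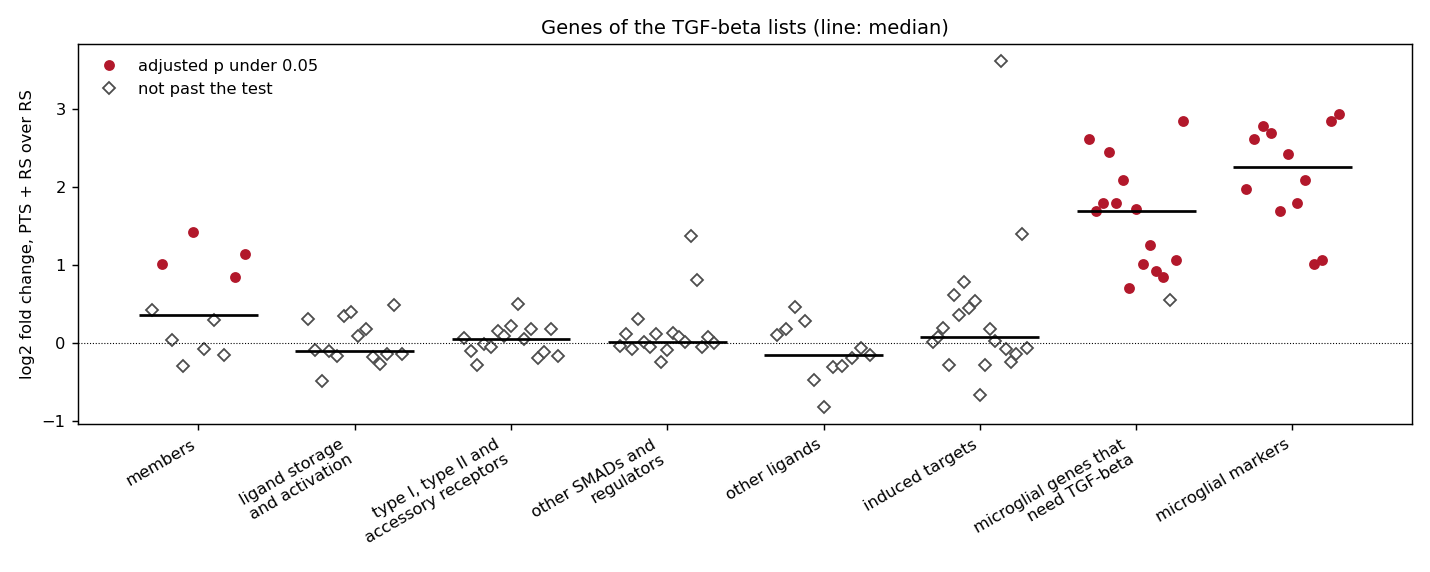
Log2 fold change of PTS + RS over RS for the members, the pathway lists, the induced targets and the microglial lists, with 1 point per tested gene and a line at the list median. Filled red points (adjusted p under 0.05) appear for 4 members, 14 of 15 microglial genes listed as needing TGF-beta and all 12 microglial markers. None appear for the pathway genes or induced targets.

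All 4 member calls rested on a fit to the 4 libraries of this comparison. In a single fit over the 8 libraries, in which the spread of the RGFP109 and NaCl libraries also counts, 0 members and 0 genes of all passed by edgeR, with adjusted p between 0.132 and 0.548 for these 4, while the log2 fold changes stayed at 1.40 for Tgfb1, 0.99 for Nrros, 0.82 for Tgfbr1 and 1.12 for Tgfbr2. The spread between replicates (biological coefficient of variation) was 11.4% in the PTS + RS and RS libraries and 32.1% in the RGFP109 and NaCl libraries.

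The second comparison asked what differed with RGFP109 in mice that had stroke plus restraint. By edgeR 0 of 10 members passed in either direction, as did 0% of the 17565 genes tested, and 0 genes passed with DESeq2 or limma-voom. Of all tested genes 1.17% had an unadjusted p under 0.05, and among the members Tgfb3 alone did. All members had an adjusted p of 0.9997. The groups differ in tissue label within themselves and replicate 1 of NaCl held olfactory bulb markers, so the values are given library by library, replicate 1 first.

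Tgfb1 measured 6.79 and 7.20 CPM with RGFP109 and 6.26 and 11.2 CPM with NaCl, with overlap and a log2 fold change of -0.32 (95% interval -1.27 to 0.63). Nrros measured 8.75 and 10.6 CPM against 6.09 and 13.6 CPM, and here the RGFP109 libraries lay between the NaCl libraries. Microglial markers summed to 467 and 742 CPM with RGFP109 and 363 and 878 CPM with NaCl, in the same order of libraries as Tgfb1 and Nrros, and their part in these values was not tested. Tgfbr1 measured 31.5 and 41.2 CPM against 28.2 and 39.5 CPM, with the 2 libraries labelled amygdala the higher ones. Tgfbr2 measured 30.2 and 31.8 CPM against 28.5 and 32.4 CPM. It had the narrowest interval of the members in this comparison, with a log2 fold change of 0.03 (95% interval -0.44 to 0.49).

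Tgfb2 varied most. It measured 58.0 CPM in replicate 1 and 10.3 CPM in replicate 2 with RGFP109, and 14.3 and 10.3 CPM with NaCl, so that 1 library decided a log2 fold change of 1.47 (95% interval -0.65 to 3.58). Without RGFP109 replicate 1 it was -0.26. Over the 8 libraries Tgfb2 lay between 56.0 and 70.9 CPM in PTS + RS, RS and RGFP109 replicate 1 and between 10.3 and 14.3 CPM in the other 3. The same 5 libraries held markers of the dentate gyrus, the granule cell layer of the hippocampus, at a summed level of 293 to 459 CPM, against 32.7 to 63.1 CPM in the other 3. This list of 8 markers was added after the Tgfb2 values were seen, and the part of the dissected region in the Tgfb2 level was not tested. Per length, the ligand order turned with it: Tgfb3 made up 57.8% of the summed ligand FPKM in RGFP109 replicate 2 and 67.8% and 56.7% in the NaCl libraries, and Tgfb2 between 19.3% and 23.4% in these 3.

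**Figure D5:**
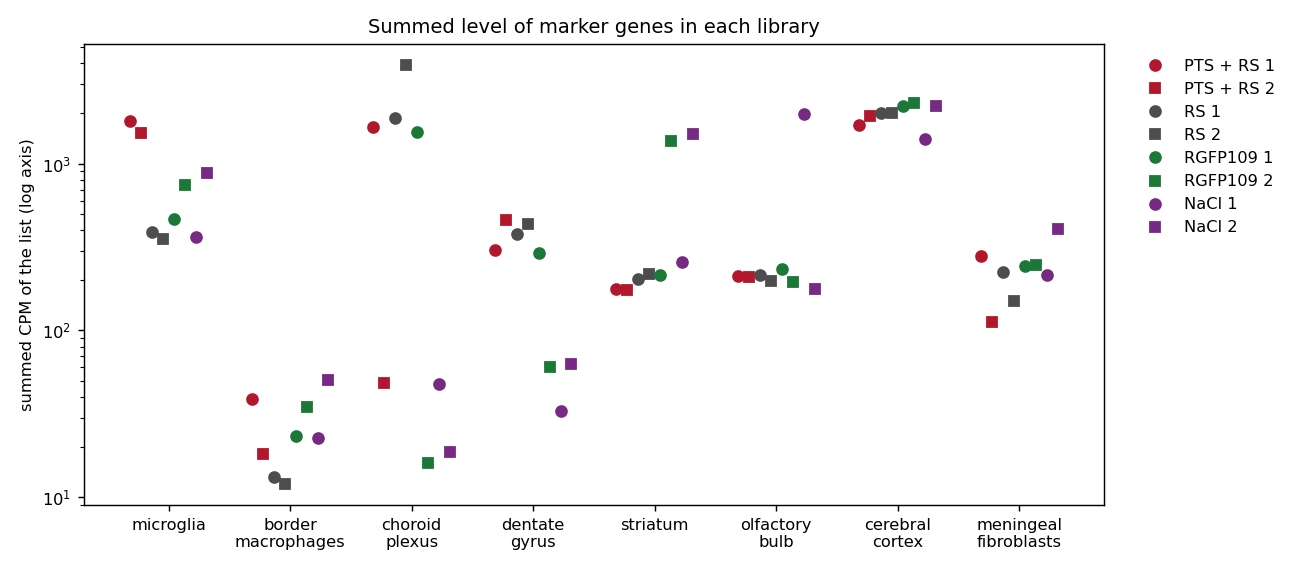
Summed CPM of marker genes for 8 cell types and regions in each library, on a log axis, with circles for replicate 1 and squares for replicate 2. Microglial markers are highest in both PTS + RS libraries (1803 and 1530 CPM), dentate gyrus markers are low in RGFP109 replicate 2 and both NaCl libraries, striatal markers are high in both replicate 2 libraries of that comparison, and olfactory bulb markers are high in NaCl replicate 1.

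Tgfb3 measured 10.6 and 14.8 CPM with RGFP109 and 26.5 and 17.8 CPM with NaCl, without overlap. The highest value was that of the library with olfactory bulb markers, and the log2 ratio of RGFP109 to NaCl was -1.31 within replicate 1 and -0.26 within replicate 2. Smad7 measured 20.4 and 29.0 CPM against 41.8 and 29.4 CPM, also without overlap, with a ratio of -1.03 within replicate 1 and -0.02 within replicate 2. These 2 members were lower without overlap, as were 13.8% of all tested genes, and 0 members were higher without overlap, as were 12.8% of all tested genes. Smad3 measured 105.8 and 115.7 CPM with RGFP109 and 69.9 and 115.4 CPM with NaCl, where the single low value was again replicate 1 of NaCl. Ltbp1 was highest in that library, at 14.2 CPM, against 8.63 and 6.64 CPM with RGFP109 and 5.76 CPM in NaCl replicate 2. Tgfbi measured 7.61 and 6.31 CPM against 7.45 and 12.4 CPM.

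Of the pathway lists 56 genes were tested in this comparison and 0 passed by edgeR, with 22 higher, 34 lower and 1 at an unadjusted p under 0.05. The induced targets (19 tested) and the microglial genes that need TGF-beta (15 tested) also gave 0 calls by edgeR (2 and 0 at an unadjusted p under 0.05), with median log2 fold changes of -0.34 and 0.14, beside -0.02 for all tested genes. The olfactory bulb-marked library, NaCl replicate 1, stood apart in 2 genes of these lists, named here after their values were seen. Sall1, a transcription factor gene on the microglial list, measured 208.4 CPM there and 23.7 to 28.2 CPM in the other 3 libraries. Microglial markers summed to 363 CPM in NaCl replicate 1, the lowest sum of this comparison, and the cells behind its Sall1 level were not tested. Ltbp2 measured 25.5 CPM in NaCl replicate 1 and 0.825 to 3.97 CPM in the others. The 95% intervals with RGFP109 were set beside the log2 fold changes of PTS + RS against RS. They left out a rise and a fall of that size for Tgfb1 (-1.27 to 0.63, against 1.42), Tgfbr1 (-0.57 to 0.77, against 0.84) and Tgfbr2 (-0.44 to 0.49, against 1.14). That of Nrros (-1.17 to 1.12, against 1.01) did not leave it out in either direction. The NaCl mice were by the study's description also PTS + RS. Their libraries measured 6.26 and 11.2 CPM for Tgfb1, 28.2 and 39.5 CPM for Tgfbr1 and 28.5 and 32.4 CPM for Tgfbr2. All of these lay below both libraries of the PTS + RS group, and Nrros (6.09 and 13.6 CPM) lay on both sides of them. The cause was not tested, and the intervals cannot say whether RGFP109 reverses the rise. The libraries of this comparison differ in region markers, so region and treatment cannot be told apart in these intervals.

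Levels of the members between genes can be ordered per length. In PTS + RS the mean FPKM was 15.3 for Smad3, 10.5 for Tgfb2, 8.40 for Tgfbr1, 6.78 for Tgfbr2, 5.67 for Smad7, 3.66 for Tgfb3, 3.63 for Tgfb1, 2.88 for Nrros, 1.91 for Tgfbi and 0.841 for Ltbp1. The neighbours Tgfbr1 and Tgfbr2, Tgfbr2 and Smad7, and Tgfb3 and Tgfb1 overlapped in their library values. In RS the mean FPKM was 15.0 for Smad3, 11.1 for Tgfb2, 6.95 for Smad7, 4.69 for Tgfbr1, 3.08 for Tgfbr2, 2.99 for Tgfb3, 2.13 for Tgfbi, 1.43 for Nrros, 1.36 for Tgfb1 and 0.629 for Ltbp1. Here Tgfbr2 and Tgfb3, and Nrros and Tgfb1, overlapped. Tgfb1 thus stood level with Tgfb3 in PTS + RS and below it in RS.

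Likeness of the members across the 8 libraries was described by Pearson's r of log2 CPM, with libraries that share group, region and depth. Tgfb1, Tgfbr1 and Tgfbr2 varied together, with r = 0.93 for each of their pairs. The PTS + RS libraries, in which these genes were called higher, are among the 8, so these r values are not independent of those calls. The lowest value of any pair was -0.79, between Tgfb2 and Tgfb3. Among 16947 other genes, the gene most like Tgfbr1 was Csf3r, the receptor of granulocyte colony-stimulating factor (r = 0.99), and the one most like Tgfb1 was Sh3tc1 (r = 0.99). Nrros was most like Cmtm3 (r = 0.98), Tgfb2 like Parp8 (r = 0.99), Tgfb3 like the kinase gene Csnk1e (r = 0.99) and Ltbp1 like Vac14 (r = 0.99). For Smad3 it was Phactr1 (r = 0.97), for Smad7 the protease gene Prss23 (r = 0.97) and for Tgfbi the collagen gene Col17a1 (r = 0.92). By Spearman's rank correlation only Vac14 remained the gene most like its member.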

How the data were processed

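RNA-seq of 8 mouse brain libraries in 4 groups of 2 was analysed, grouped by the sample labels. The authors aligned reads to GRCm38 with STAR 2.4.0 and counted reads per gene with HTSeq 0.6.1. The deposited counts, 15902013 to 21712033 per library, are not normalized, and the FPKM values deposited by the authors equal the count divided by gene length and 1 factor per library. The labels and the paper name different library kits. The deposited log2 fold changes, p-values, adjusted p-values and group means of a normalized signal, and 8 per-sample columns of other values, were not used. The second table holds no identifiers, and its 28229 genes were matched to those of the first by position.

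Genes were filtered with filterByExpr and normalized by TMM, and each comparison was fitted on its own 4 libraries with the quasi-likelihood test of edgeR 4.0.16 in R 4.3.3, with p-values adjusted by Benjamini-Hochberg over the 17581 or 17565 genes tested. A gene passed, rose or fell at an adjusted p under 0.05. DESeq2 1.42.0, limma-voom (limma 3.58.1), other size factors, no filter, a replicate block, a fit over 8 libraries, a fold minimum and leaving out each library were tried as alternatives. Scripts were tested on simulated data. Tables and figures were made with Python 3.11.15, pandas 2.3.3 and matplotlib 3.10.9. Log CPM used a prior count of 2. Replicates differed by more than counting noise. Their log CPM correlated at 0.982 (PTS + RS), 0.990 (RS), 0.966 (RGFP109) and 0.943 (NaCl). The spread between libraries more than depth limited the precision.

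The members and gene lists were chosen with earlier results of these data known, so no list count is independent evidence. All 10 members were named, with the 2 largest rises and falls among passing genes of each pathway or target list and the gene most like each member, except that 2 genes are not reported here. Promoters were taken from RefSeq (GRCm38.p6).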

Additional observations from a re-analysis of the deposited data

Results flagged for a closer look

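For 6 members the log2 ratio of RGFP109 to NaCl had opposite signs within replicate 1 (labelled cortex) and within replicate 2 (labelled amygdala). Each ratio compares 1 library with 1 library, so the difference was not tested. Tgfb2, the ligand gene with the widest range, had 2.01 within replicate 1 and -0.01 within replicate 2. The other ligand gene was Tgfb1, with 0.12 and -0.63. Of the latency genes, Nrros had 0.52 and -0.35, and Ltbp1 had -0.71 and 0.20. The matrix gene Tgfbi had 0.030 and -0.96. The receptor gene Tgfbr2 had 0.083 and -0.026, both close to 0. In this comparison replicate 1 of NaCl held olfactory bulb markers at 1989 CPM and RGFP109 replicate 1 held 232 CPM, and the part of this in the ratios was not tested.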

How the results depend on the processing

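The 4 member calls of PTS + RS against RS held with DESeq2, limma-voom, DESeq2 size factors, no filter and a replicate block (4 each), 3 also had a log2 fold change of at least 1 (Tgfb1, Nrros and Tgfbr2), and 0 passed in one fit over 8 libraries. Leaving out 1 library gave 3 to 4, with Nrros lost without either RS library. Of the microglial genes that need TGF-beta 14 passed, 0 in the fit over 8 libraries and 12 to 14 without 1 library. Of the induced targets 0 passed by edgeR, but 4 with DESeq2, 6 with no filter, 4 with a replicate block and 0 to 8 without 1 library (8 without PTS + RS replicate 1, 7 without replicate 2, 2 without RS replicate 1). Of the other pathway genes 0 passed, but 1 with DESeq2, 7 with no filter, 1 with a replicate block and 0 to 11 without 1 library (7 without PTS + RS replicate 1, 11 without replicate 2). Over all genes the calls, higher and lower, went from 521 and 103 to 1119 and 716 with no filter, 1018 and 753 without PTS + RS replicate 1, 1413 and 1278 without PTS + RS replicate 2, 351 and 69 without RS replicate 1, 339 and 32 without RS replicate 2, 687 and 228 with a replicate block, and 0 and 0 in the fit over 8 libraries. The cause was not tested.

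The log2 fold changes of these members, which did not pass, changed sign when 1 library was left out. In PTS + RS against RS the log2 fold change ranged from -0.21 to 0.062 for Tgfb2, -0.0063 to 0.070 for Smad3 and -0.61 to 0.19 for Tgfbi. In RGFP109 against NaCl it ranged from -0.69 to 0.17 for Tgfb1, -0.26 to 2.24 for Tgfb2, -0.89 to 0.40 for Ltbp1, -0.49 to 0.68 for Nrros, -0.13 to 0.38 for Tgfbr1, -0.068 to 0.13 for Tgfbr2 and -0.066 to 0.67 for Smad3. Nrros, at -0.02, was 0.088 with limma-voom and 0.073 with a replicate block. In that comparison 0 members passed under any alternative, and 0 to 1 microglial genes and 0 to 1 pathway genes without 1 library, each at 1 without NaCl replicate 2 (Sall1 and Ltbp2, both lower), where 15 genes were higher and 78 lower over all genes.

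Replicate numbers in the labels name samples only. The correlation of replicate differences between groups was 0.035 for PTS + RS and RS and 0.30 for RGFP109 and NaCl, where the number is also the tissue label, and a replicate block changed no member call. With 2 libraries a group and markers of several brain regions, region and treatment cannot be told apart for RGFP109.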
